A study of Mus musculus with 2 samples.

Results

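Imprinted genes are expressed mainly from the copy inherited from 1 parent, and 41 of them, chosen by name from known mouse imprinted genes, were followed among the 43346 Ensembl genes of the gene tables. All 41 were matched to 1 Ensembl identifier each. The data were 2 total RNA libraries of limb from mouse embryos of strain B6NCrl at E13.5 (13.5 days), taken as biological replicates 1 and 2 of a single group, with pooled males and females. Per the labels, 10 ng of RNA longer than 200 nt was used with ERCC spike-ins added, and they name no treatment, mutation or sorting of cells. Values are TPM (a transcript level corrected for length and library size) unless stated, folds between 2 genes are taken after adding 0.1 TPM to each, and with n = 2 each SD rests on 2 libraries. The labels give separate biosamples that share 1 donor entry, so the spread measures only the difference between these samples. The strain is inbred and the tables carry no alleles, so the parental copy named for a gene is textbook background and was not measured.

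Imprints are DNA methylation marks set in the egg or the sperm that survive the demethylation after fertilization. Most imprinted genes lie in clusters, in which an imprinted control region governs several genes, often through an insulator or a long non-coding RNA made from 1 parental copy. Many are known for setting fetal growth: paternally expressed genes such as Igf2 tend to promote it, and maternally expressed ones such as Igf2r, Grb10 and Cdkn1c tend to restrain it. In the embryo several are also known from mesenchyme, cartilage and muscle precursors.

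The promoters of 3 members with alternative start sites, Gnas, Grb10 and Mest, are shown because the start sites differ in the RNA measured at them. Each sequence holds 250 bases before to 30 bases after a RefSeq start site (GRCm38.p6), and capitals mark TGCCGC or its reverse complement GCGGCA, the hexamer that the imprint-keeping factor ZFP57 binds when methylated. At Gnas, the gene of the stimulatory G protein alpha subunit, the Nesp start (chr2:174284070-174284349, plus strand) is known to be maternal, the exon 1A start (chr2:174327499-174327778, plus strand) paternal, and the start of the alpha subunit (chr2:174329756-174330035, plus strand) active on both copies in most tissues.
Gnas Nesp: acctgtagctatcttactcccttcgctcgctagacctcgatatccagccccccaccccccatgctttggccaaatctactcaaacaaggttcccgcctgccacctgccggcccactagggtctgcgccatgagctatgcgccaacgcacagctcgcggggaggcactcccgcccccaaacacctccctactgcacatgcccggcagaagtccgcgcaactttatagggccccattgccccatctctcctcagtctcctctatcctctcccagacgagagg
Gnas exon 1A: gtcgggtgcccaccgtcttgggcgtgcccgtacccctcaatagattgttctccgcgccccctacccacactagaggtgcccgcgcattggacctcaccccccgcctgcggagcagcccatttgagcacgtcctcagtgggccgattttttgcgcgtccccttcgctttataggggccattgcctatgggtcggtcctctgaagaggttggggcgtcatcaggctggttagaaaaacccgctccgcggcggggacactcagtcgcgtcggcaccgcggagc
Gnas alpha subunit: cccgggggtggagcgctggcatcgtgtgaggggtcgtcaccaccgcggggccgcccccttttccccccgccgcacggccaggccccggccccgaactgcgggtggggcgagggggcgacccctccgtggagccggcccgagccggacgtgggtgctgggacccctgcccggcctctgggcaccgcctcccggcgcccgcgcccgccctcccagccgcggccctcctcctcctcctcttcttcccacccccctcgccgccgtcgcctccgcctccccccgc
At Grb10, an adaptor that restrains insulin and growth factor receptors, the main start (chr11:12037391-12037670, minus strand) and a start 9.43 kb downstream (chr11:12027942-12028221, minus strand) were compared.
Grb10 main: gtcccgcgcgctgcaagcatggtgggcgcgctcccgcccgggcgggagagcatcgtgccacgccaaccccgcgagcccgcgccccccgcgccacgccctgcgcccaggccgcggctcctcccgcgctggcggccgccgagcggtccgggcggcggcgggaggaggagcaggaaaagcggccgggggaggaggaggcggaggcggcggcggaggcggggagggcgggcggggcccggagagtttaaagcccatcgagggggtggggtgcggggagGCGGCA
Grb10 downstream: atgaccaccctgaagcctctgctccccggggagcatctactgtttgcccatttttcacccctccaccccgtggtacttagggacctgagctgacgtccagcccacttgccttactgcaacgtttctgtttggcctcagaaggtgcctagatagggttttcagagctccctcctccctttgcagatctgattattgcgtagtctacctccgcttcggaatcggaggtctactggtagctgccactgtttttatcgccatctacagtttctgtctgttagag
At Mest, which encodes a hydrolase family protein, the start in use (chr6:30737800-30738079, plus strand) and an upstream start (chr6:30733256-30733535, plus strand) were compared.
Mest in use: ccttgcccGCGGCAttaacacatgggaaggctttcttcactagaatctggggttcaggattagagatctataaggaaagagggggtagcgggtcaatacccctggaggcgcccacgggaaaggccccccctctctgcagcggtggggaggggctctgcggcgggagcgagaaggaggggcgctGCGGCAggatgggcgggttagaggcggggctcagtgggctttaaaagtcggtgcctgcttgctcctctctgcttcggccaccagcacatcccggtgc
Mest upstream: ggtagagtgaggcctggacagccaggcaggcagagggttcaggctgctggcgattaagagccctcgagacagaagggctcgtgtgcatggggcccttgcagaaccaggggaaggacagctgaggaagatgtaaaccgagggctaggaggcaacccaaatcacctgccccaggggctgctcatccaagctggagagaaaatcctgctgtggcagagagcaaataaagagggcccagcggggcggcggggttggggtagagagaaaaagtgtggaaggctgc
The alpha subunit start of Gnas held 35 CG dinucleotides in its 280 bases, the exon 1A start 26 and the Nesp start 15. The 2 Grb10 starts held 43 (main) and 9 (downstream), and the 2 Mest starts 16 (in use) and 7 (upstream). The hexamer occurred 2 times at the Mest start in use and 1 time at the main Grb10 start, and in none of the other 5 sequences. Over the 51 RefSeq windows (250 bases before to 50 after a start) matched to 34 of the members, 12 held the hexamer on either strand (23.5%), against 11.6% of all 32851 windows of that length. The member windows hold a median of 13 CG dinucleotides against 7 over all windows, and 2 of the 12 are the same Mest promoter, with starts a few bases apart. The hexamer holds a CG itself, and the part of CG content in the difference was not tested. The 2 orientations can share bases where they meet, and each was counted. A match is a description of letters, not a bound site.

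Of the 41 imprinted genes, 37 were detected, that is at 1 TPM or more in both libraries, where 34.6% of all Ensembl genes were. The list holds well-studied genes, so the 2 shares are given side by side with no test. At 100 TPM or more in both libraries there were 13 of the 41, against 3.93% of all genes. Most members are protein-coding, while all Ensembl genes include many that are not. Of the 35 protein-coding members 31 were detected, beside 13100 of all 21474 protein-coding genes. At 100 TPM or more there were 10 of these 35, beside 1606 of the 21474. The median level of all 41 members, detected or not, was 37.2 TPM. It was 17.2 TPM over all detected genes, a set that leaves out undetected ones. Over all protein-coding genes, detected or not, it was 4.79 TPM. Together the members made up 9615 TPM in replicate 1 and 9831 TPM in replicate 2, and 1.34% and 1.37% of the counts. The 7 highest members carried 78.1% of the members' TPM and the 13 highest 93.6%, so the family's RNA came mostly from few genes.

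**Figure D1:**
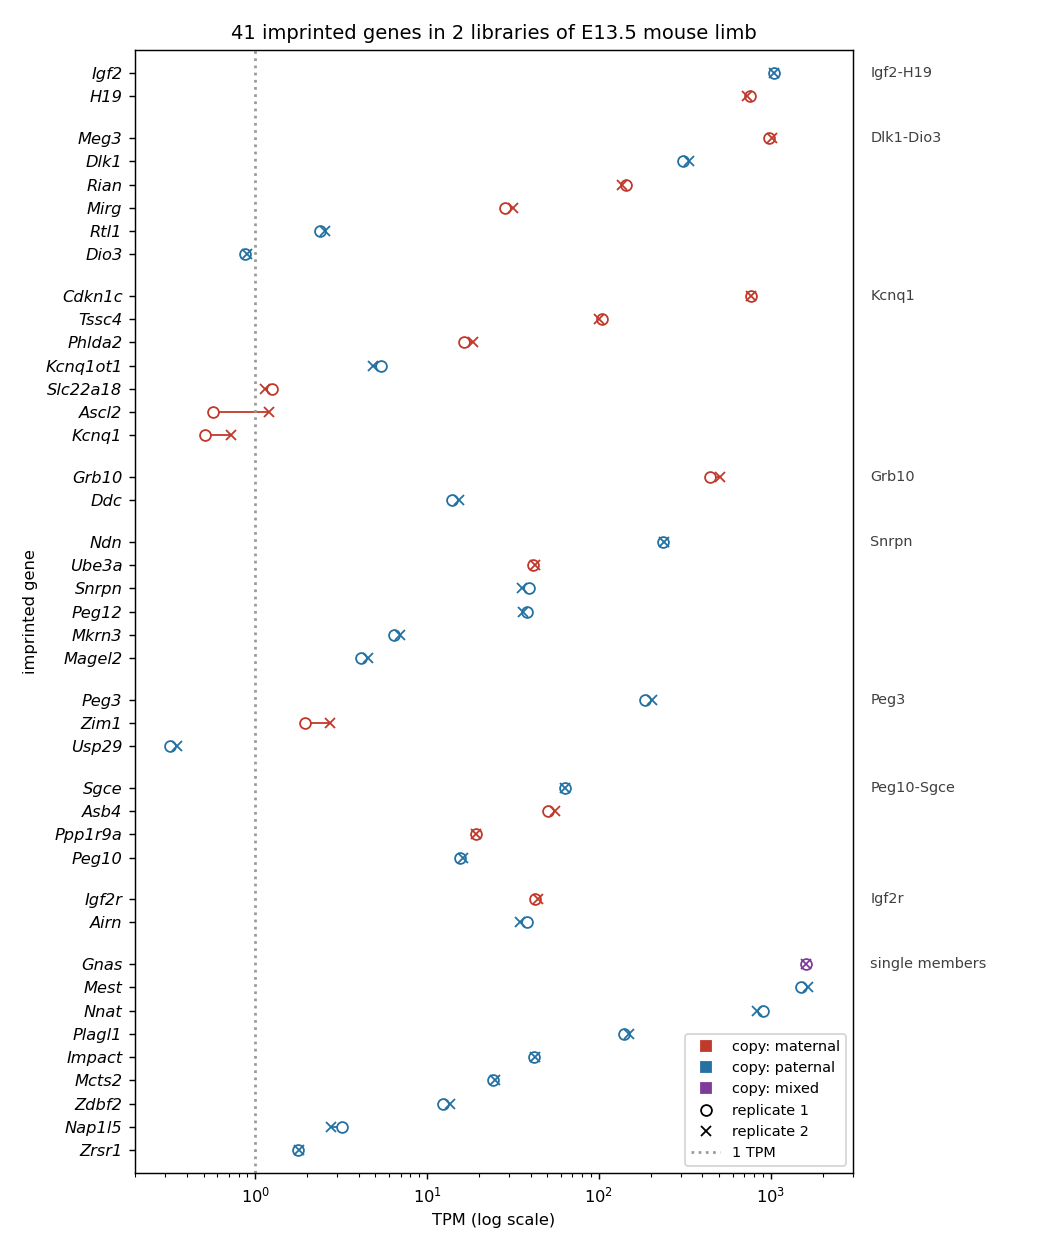
TPM (log axis) of the 41 imprinted genes, grouped by cluster, in replicate 1 (circles) and replicate 2 (crosses), with the colour giving the parental copy known from the literature and the dotted line 1 TPM. Gnas, Mest and Igf2 lie above 1000 TPM in both libraries, and Dio3, Ascl2, Kcnq1 and Usp29 are below 1 TPM in at least 1 library.

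Limb genes were present as the label states, and the 2 libraries differed in some cell type markers. All 10 limb mesenchyme markers were detected, with Msx1 (226 and 281 TPM) and Prrx1 (133 and 149 TPM) highest. Markers of cartilage (6 of 6, led by Col2a1 and Col9a3), muscle (7 of 7, led by Actc1 and Acta1), epidermis (4 of 4, led by Krt14 and Krt5), endothelium (6 of 6, led by Egfl7 and Plvap) and red cells (7 of 7, led by Hbb-y and Hba-a1) were detected as well, and of these 30 genes 5 were higher and 1 was lower in replicate 2 beyond the spread, where 3.55% of all genes tested differed. Of the 10 limb mesenchyme genes 2 were higher and 3 lower in replicate 2 beyond the spread. Of 12 liver markers, led by Trf and Afp, all 10 with enough counts were lower in replicate 2 beyond the spread, with a median log2 ratio of -2.75 and summed levels of 74.8 and 20.0 TPM. The forelimb gene Tbx5 rose by 0.51 on the log2 scale and the hindlimb genes Tbx4 and Pitx1 fell by 0.25 and 0.34 from replicate 1 to replicate 2, all beyond the spread, and the other 2 of the 5 were Msx1 (0.29) and Hoxd13 (-0.21). Tbx5, Tbx4, Pitx1 and Hoxd13 were named after their values were seen. Neuron markers summed to 102 and 101 TPM, led by Gap43 and Map2, and 8 of 12 were detected. None of 7 placenta markers was detected, and Prl3d1, Tpbpa and Ctsq had 0 counts in both libraries. In bulk tissue, fewer cells of a type and less RNA per cell cannot be told apart.

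Igf2 and H19 share a cluster on chromosome 7 (chr7:142575529-142666816, mm10) and were both among the 7 highest members. Igf2, the paternally expressed insulin-like growth factor, was at 1042 TPM in replicate 1 and 1038 TPM in replicate 2. H19, the maternally expressed long non-coding RNA whose start lies 88.7 kb away, was at 758 and 729 TPM. Igf2 was higher in both libraries, with no overlap, by a log2 ratio of 0.48, which was past the spread, set at 2 combined replicate SDs of genes of like level (SD 0.078). Passing this spread says only that 2 levels differ by more than replicate error. On expected counts, which are not corrected for length, the log2 ratio was 0.21, also past the spread. Of the Igf2 TPM, 49.3% and 47.2% came from entries not annotated as protein-coding, mostly a short processed transcript. Without these entries Igf2 would lie below H19 in TPM in both libraries. Both genes host a miRNA on their own strand, shown with bases 2 to 8, the seed, in capitals.
miR-483-3p (inside Igf2, chr7:142654932-142654952, minus strand): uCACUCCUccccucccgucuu
miR-675-5p (inside H19, chr7:142577112-142577133, minus strand): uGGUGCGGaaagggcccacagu
The libraries kept RNA longer than 200 nt, so mature miRNAs were not measured, and only the host RNAs were.

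Igf2r, Cdkn1c and Grb10, known for restraining fetal growth, stood below Igf2 itself in TPM. Igf2r, the maternally expressed receptor that carries IGF2 to the lysosome, was at 42.7 and 44.0 TPM, which was 24.0-fold below Igf2 and past the spread. Airn, the paternally expressed RNA made from inside Igf2r on the other strand, was at 38.3 and 34.7 TPM. The Airn transcripts measured are 435 to 1375 nt long in a gene of 119 kb. The TPM of Airn and its ratio to Igf2r thus cover only these short forms. The 2 genes overlap over 28.4 kb, and their ratio of 1.19-fold did not pass the spread, though it did in replicate 2 taken alone and on expected counts, where Igf2r was higher by 3.59 on the log2 scale. Cdkn1c, the cyclin-dependent kinase inhibitor p57, was at 766 and 767 TPM and lay 1.36-fold below Igf2, past the spread in TPM but not on expected counts (log2 ratio 0.08). Without the Igf2 entries not annotated as protein-coding, Igf2 would lie below Cdkn1c in TPM. Grb10 was at 444 and 504 TPM, the lower value in replicate 1, and lay 2.20-fold below Igf2 per length; its transcript is longer, and its expected counts (44895 and 66976) were above those of Igf2 (30646.9 and 39830.5).

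The Dlk1-Dio3 cluster on chromosome 12 (chr12:109452823-110281097) spanned 828 kb and a 1123-fold range of mean level (nothing added). Its maternally expressed non-coding members, Meg3, Rian and Mirg, fell in the order of their position. The RNA B830012L14Rik, a further imprinted gene outside the members, breaks this order. It lies between Rian and Mirg and was lower than both, at 6.60 and 6.96 TPM, and was named after its value was seen. Meg3 was at 974 and 1014 TPM, Rian, the host of small nucleolar RNAs, at 144 and 137 TPM, and Mirg, a host of miRNAs, at 28.4 and 31.4 TPM. Meg3 exceeded Rian 7.06-fold and Rian exceeded Mirg 4.70-fold, both past the spread. The paternally expressed genes were less even: Dlk1, a Delta-like regulator of progenitor cells, was at 308 and 333 TPM, with all of its values below those of Meg3. Rtl1, a protein derived from a retrotransposon and known from placenta and muscle, was at 2.38 and 2.55 TPM (310 and 441 counts). Dio3, the deiodinase that inactivates thyroid hormone, was at 0.87 and 0.90 TPM (35 and 45 counts), under the detection threshold in both libraries. Dlk1 thus exceeded Rtl1 125-fold and Dio3 325-fold, both past the spread, and with 1 TPM added the second was 170-fold.

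Rtl1 is shown with the miRNAs made from the opposite strand, because each of them pairs with Rtl1 RNA in full. The annotation of RefSeq has 6 miRNA hairpins on the opposite strand within Rtl1, with 11 mature miRNAs, and the exact reverse complement of all 11 was found in the coding part of the Rtl1 transcript. One arm of each hairpin follows, with the seed in capitals, on the plus strand.
miR-431-5p (chr12:109590459-109590479): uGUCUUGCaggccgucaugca
miR-433-3p (chr12:109591781-109591802): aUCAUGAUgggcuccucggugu
miR-127-3p (chr12:109592888-109592909): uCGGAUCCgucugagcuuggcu
miR-434-3p (chr12:109594565-109594586): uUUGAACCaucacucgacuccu
miR-432 (chr12:109595006-109595028): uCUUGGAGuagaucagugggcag
miR-136-5p (chr12:109595331-109595352): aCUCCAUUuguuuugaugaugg
site of miR-127-3p in Rtl1: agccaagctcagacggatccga
The 6 arms have 6 different seeds. Inside the bounds of the other RNAs of the cluster on the same strand lay 14 miRNA hairpins in Mirg, 3 in Rian and 1 in Meg3. Their mature products are too short for these libraries.

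The Kcnq1 cluster on chromosome 7 (chr7:142966829-143503150) held the widest range in TPM, 1246-fold between the mean levels of Cdkn1c and Kcnq1 (nothing added). This rank rests on the few counts of Kcnq1. By the posterior mean, another deposited estimate of TPM, the cluster ran from 0.92 TPM (Ascl2) to 748 TPM (Cdkn1c). The Dlk1-Dio3 cluster then ran wider, from 0.955 TPM (Dio3) to 973 TPM (Meg3). Tssc4, a splicing-associated protein, was at 104 and 99.8 TPM, and the gene Trpm5 overlaps all of it on the other strand, at 17.5 and 18.5 TPM. Phlda2, a pleckstrin homology protein known to limit placental growth, was at 16.3 and 18.5 TPM and lay 43.8-fold below Cdkn1c. The other maternal genes of the cluster were near or under the detection threshold. Slc22a18, a transporter, was at 1.25 and 1.14 TPM (37 and 45 counts). Ascl2, a basic helix-loop-helix factor of the trophoblast, was at 0.57 and 1.20 TPM (18 and 50 counts), on either side of the threshold, and the placenta markers were under it. Kcnq1, a potassium channel subunit, was at 0.51 and 0.72 TPM (31 and 43 counts).

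Kcnq1ot1, the paternally expressed antisense RNA known to silence the cluster, shows how a level per length and a count can differ. It was at 5.40 and 4.84 TPM, rank 31 among the 41 members, while its 9478 and 11286 expected counts stood beside 9168 and 13344 of Dlk1, above them in replicate 1 and below them in replicate 2. Its annotated RNA is 84395 nt long. It overlaps Kcnq1 over 93.1 kb on the other strand and exceeded it 7.37-fold in TPM, or 3.79-fold with 1 TPM added. The posterior mean of Kcnq1, another estimate in the tables, was 2.15 TPM in place of 0.615 TPM, so its level differed between estimates of the same libraries.

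In the Peg3 cluster on chromosome 7, Peg3 was far above the other members. Peg3, a zinc finger protein, was at 186 and 204 TPM. Usp29, a ubiquitin peptidase, was at 0.32 and 0.35 TPM (17 and 24 counts), and was not detected. Peg3 exceeded Usp29 449-fold with 0.1 TPM added and 147-fold with 1 TPM added, past the spread with both. The later annotation begins the Usp29 gene 147 bases from the Peg3 start, in the opposite direction, but the 1 Usp29 transcript in the tables starts 231 kb away. Its level is therefore not a measure of RNA from the start beside Peg3. Both genes are known to be paternally expressed, and the stretch between their annotated ends (chr7:6730432-6730577, plus strand), is shown because both genes are annotated to start at its edges, with its 5 CG dinucleotides in capitals.
Peg3 to Usp29: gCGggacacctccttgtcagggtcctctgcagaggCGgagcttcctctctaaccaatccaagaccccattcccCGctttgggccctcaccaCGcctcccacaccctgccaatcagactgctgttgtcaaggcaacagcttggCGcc
Zim1, a maternally expressed zinc finger gene next to Peg3, was at 1.95 and 2.71 TPM (133 and 244 counts), 81.3-fold below Peg3.

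Peg10 and Sgce on chromosome 6 also start back to back, 99 bases apart, and are both paternally expressed. Sgce, the muscle-linked epsilon sarcoglycan, was at 63.5 and 63.6 TPM. Peg10, a retrotransposon-derived protein known for its need in the placenta, was at 15.6 and 16.1 TPM, and Sgce exceeded it 3.99-fold, past the spread. Of the maternal genes in this cluster, Asb4, a substrate adaptor of ubiquitin ligases, was at 50.8 and 55.2 TPM. Ppp1r9a, the actin-binding neurabin known from neurons and muscle, was at 19.2 and 19.4 TPM. Sgce was 1.20-fold above Asb4 per length and 3.29-fold above Ppp1r9a, both past the spread. On expected counts Asb4 was above Sgce (log2 ratio of Sgce over Asb4 -0.67), and Sgce was above Ppp1r9a by 0.22 and above Peg10 (log2 ratio of Peg10 over Sgce -0.59).

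**Figure D2:**
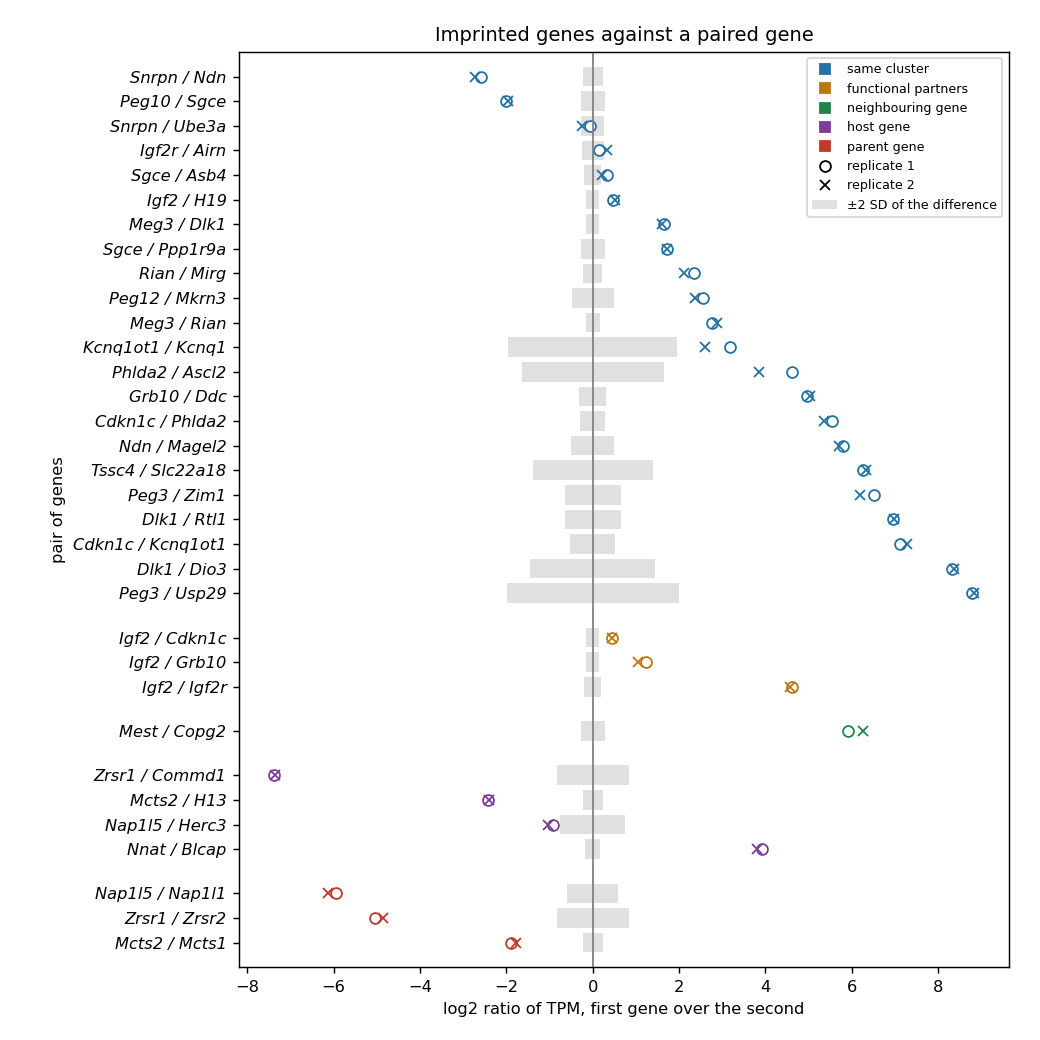
log2 ratio of TPM (first gene over the second, 0.1 TPM added) for 33 pairs in replicate 1 (circles) and replicate 2 (crosses), with grey bars for 2 combined replicate SDs to either side of 0. In 31 pairs the mean ratio lies outside the bar, and in Igf2r over Airn and Snrpn over Ube3a it does not. The bar is replicate error alone, and pairs of other genes were not counted beside these.

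The Snrpn cluster, which corresponds to the human Prader-Willi and Angelman region, lies on chromosome 7 between 59228750 and 62464510. Ndn, which encodes the growth-restraining MAGE protein necdin, led it at 236 and 239 TPM. The related gene Magel2 was at 4.14 and 4.50 TPM, 53.8-fold lower and past the spread. Snrpn, a spliceosomal Sm protein, was at 39.4 and 35.9 TPM, and Snurf, annotated on the same strand within it, was listed at 25.9 and 25.7 TPM. Peg12, a Frat family protein, was at 38.4 and 36.1 TPM, and Mkrn3, a makorin RING finger protein, at 6.43 and 6.92 TPM, 5.51-fold below Peg12. Ube3a, the ubiquitin ligase of Angelman syndrome, which is imprinted in neurons and expressed from both copies elsewhere, was at 41.3 and 42.7 TPM. Its ratio to Snrpn, 1.12-fold in favour of Ube3a, did not pass the spread in TPM, and did on expected counts (log2 ratio of Snrpn over Ube3a -1.61). Snhg14, the long RNA that runs against Ube3a in neurons, was at 8.84 and 8.89 TPM.

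Members that stand alone in the list included the 2 highest of all. Gnas was at 1605 and 1613 TPM, and Mest at 1492 and 1655 TPM, lower than Gnas in replicate 1 and higher in replicate 2, so their order was within the spread. Mest exceeded its neighbour Copg2, which overlaps its end over 0.912 kb on the other strand (24.5 and 21.6 TPM), 68.1-fold. Nnat, a small membrane proteolipid, was at 901 and 826 TPM. Plagl1, a zinc finger factor known to regulate other imprinted genes, was at 140 and 149 TPM. Impact, a regulator of translation under stress, was at 42.1 and 42.3 TPM, and Zdbf2, a zinc finger gene, at 12.3 and 13.6 TPM. Ddc, which makes dopamine and serotonin and lies beside Grb10, was at 14.04 and 15.4 TPM, 32.0-fold below Grb10.

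In the order of all 41 levels, 16 of the 40 gaps between neighbouring ranks passed the spread. Gnas and Mest, Igf2 and Meg3, Cdkn1c and H19, and Plagl1 and Rian were neighbours whose order did not. From Igf2r down to Airn, 6 members (Igf2r, Impact, Ube3a, Snrpn, Peg12 and Airn) lay between 34.7 and 44.0 TPM, and no step between neighbours passed the spread. From Mkrn3 down to Usp29 no step passed the spread either.

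The members were also grouped by the copy they are known to be expressed from. Of 16 maternally expressed members 14 were detected, with a median of 42.7 TPM, and of 24 paternally expressed members 22 were detected, with a median of 30.5 TPM. Gnas, with starts of both kinds, was kept apart. The log2 ratio of the paternal over the maternal median was -0.43 in replicate 1 and -0.54 in replicate 2. The groups ran from 0.615 to 994 TPM in the maternal group and from 0.335 to 1574 TPM in the paternal group, and they overlapped almost entirely. Without the 7 members imprinted only in some tissues (Kcnq1, Ascl2, Tssc4, Asb4, Ppp1r9a, Ube3a and Ddc) the medians were 91.97 TPM for 10 maternal and 36.5 TPM for 23 paternal members, and with Grb10 also left out the maternal median was 43.3 TPM. The 6 non-coding RNAs had a median of 88.6 TPM and the 35 protein-coding members one of 37.2 TPM.

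Of 29 members with a mean of 10 TPM or more, 25 had a start site with over 50% of their TPM in both, where 95.8% of all 9324 such genes did. Start sites were built from annotated transcripts whose starts lie within 500 bases of each other. Of the 29 members, 10 had only 1 such site, so their share was over 50% by construction. The 4 members under 50% all had more than 1 site. The 9324 genes were not split by their number of sites, so the 2 shares are given side by side with no test. Transcripts with no position in the annotation were left out of the shares, among them 1 of Peg10 with 39.3% and 40.5% of its TPM. The share at Gnas was led by the alpha subunit start, with 90.9% in replicate 1 and 90.4% in replicate 2. Its Nesp start, 45.7 kb upstream, held 4.97% and 5.25%, and the exon 1A group 2.08% and 2.41%. The third protein of the locus, XL alpha s, whose start is paternal, held 0.823% and 0.856%. The opposite-strand RNA Nespas was at 10.2 and 10.9 TPM. Thus the starts known to be imprinted carried the lesser part of the locus's RNA in both libraries.

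The other members with shown promoters also relied on a leading start. Mest had 97.8% and 97.9% of its TPM at the start in use and 0.0530% and 0.0387% at the upstream start. Grb10 had 93.1% and 93.8% at the main start and 4.56% and 2.66% at the start 9.43 kb downstream. Expected counts were 1962 and 1726 at that downstream start against 42740 and 64926 at the main start. Starts further downstream, from chr11:12026732 to 12026324, held 1.34% and 2.73% of the TPM on 49.8 and 140 counts. In replicate 2 their share of TPM was above that of the downstream start shown. Plagl1 had 99.1% and 98.4% at its leading start, and Nnat 99.5% and 99.4%. Of Meg3, 85.3% and 85.4% came from its first start. Of Dlk1, 73.4% and 75.5% came from a transcript with 1155 coding bases, and 8.92% and 11.1% from a shorter form with 936 coding bases.

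The 4 members without such a leading start in TPM were Igf2, Rian, Mirg and Ddc. Igf2 had 46.8% and 45.1% of its TPM from a processed transcript of 958 nt that starts inside the gene, 25.2% and 27.7% from the most upstream start, and 14.5% and 14.5% and 10.8% and 10.3% from 2 starts between. By expected counts the start at chr7:142659489, with a transcript of 4722 nt, held the most, 35.2% and 34.4%, and the most upstream start 9.83% and 10.99%. The order of Igf2 start sites thus differed between TPM and counts. In H19 the downstream starts led in TPM (59.0% and 58.1%) and the first start in counts (53.2% and 54.0%). Rian spread over 9 sites with counts, with at most 34.8% and 35.9% at 1 of them, and Mirg over 7, with at most 42.6% and 40.3%. On expected counts the same sites held 52.1% and 52.2% of Rian and 59.4% and 58.8% of Mirg, over 50% in both libraries. Ddc had 46.9% in replicate 1 and 28.6% in replicate 2 at its most upstream start, on 250 and 223 counts, and in replicate 2 its most downstream start, at 32.3%, was higher. Sgce, with 1 start, had 44.7% and 63.6% on its leading transcript and 31.0% and 17.4% on a form that retains an intron, a difference between libraries that was not tested.

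**Figure D3:**
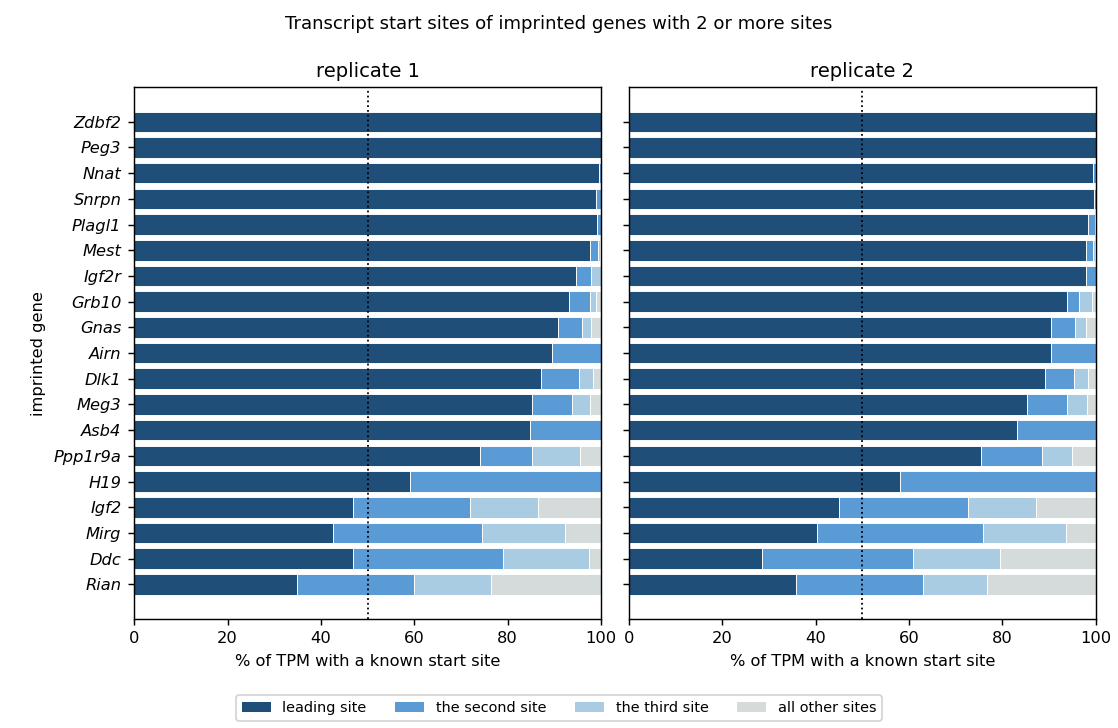
Percent of each gene's TPM from its start sites in replicate 1 (left) and replicate 2 (right), for the 19 imprinted genes at 10 TPM or more with at least 2 annotated sites, ordered by the share of the leading site (dark). The 4 lowest bars, Igf2, Mirg, Ddc and Rian, stay under the dotted line at 50%.

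Mcts2, Zrsr1, Nap1l5 and Nnat lie within introns of other genes, and the first 3 are intronless copies of a parent gene made by retrotransposition. Mcts2 was at 24.1 and 24.8 TPM, 5.33-fold below its host H13 (129 and 132 TPM) and 3.56-fold below its parent Mcts1 on the X chromosome (89.5 and 85.3 TPM). Nap1l5 was at 3.18 and 2.76 TPM, 1.97-fold below its host Herc3 and 66.1-fold below the related gene Nap1l1. Zrsr1 was at 1.78 and 1.79 TPM, 165-fold below its host Commd1 (313 and 310 TPM) and 30.9-fold below Zrsr2. Nnat went the other way and exceeded its host Blcap (59.4 and 59.1 TPM) 14.5-fold. All 7 ratios were past the spread, except that Nap1l5 to Herc3 was not with 1 TPM added in place of 0.1. Herc3, Commd1 and Blcap run on the strand opposite to the gene they hold. Whether the authors' counting used strand is not given, and without it reads of a member and of a gene on the other strand cannot be told apart. This applies, among others, to these 3 pairs and to Airn and Igf2r, Kcnq1ot1 and Kcnq1, Tssc4 and Trpm5, Mest and Copg2, Gnas and Nespas, and Ube3a and Snhg14, where they overlap. It also applies to Rtl1, which has 6 miRNA hairpins on its opposite strand. Mcts2 lies within H13 on the same strand, so strand could not set its reads apart from those of unspliced H13 RNA.

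Whether reads can be told apart between copy and parent depends on their sequences, so these were compared. The coding parts of Mcts2 and Mcts1, 543 bases each, were identical at 85.1% of positions, with a longest shared run of 29 bases. Zrsr1 and Zrsr2 were identical at 80.6% of 1279 aligned bases, with a longest run of 37, and Nap1l5 and Nap1l1 at 72.0% of 468, with a longest run of 11. All runs were shorter than the 99 nt that the authors' effective lengths subtract. Only coding parts were compared, so the untranslated parts of these transcripts remain unchecked. The first 120 coding bases of the closest pair follow, with the 19 differences in capitals.
Mcts2: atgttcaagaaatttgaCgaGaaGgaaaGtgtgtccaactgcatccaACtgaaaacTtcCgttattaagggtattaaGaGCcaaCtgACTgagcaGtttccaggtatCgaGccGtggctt
Mcts1: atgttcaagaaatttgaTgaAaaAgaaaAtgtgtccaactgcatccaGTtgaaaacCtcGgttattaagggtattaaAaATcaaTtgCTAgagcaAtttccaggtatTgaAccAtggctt

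Most of the listed factors of imprint control, which do not all serve to keep imprints, were present in the limb. Of 12 listed genes 9 were detected, led by Trim28, the corepressor that binds ZFP57, at 277 and 266 TPM. The methyltransferase Dnmt3a was at 164 and 162 TPM, Uhrf1, which guides maintenance methylation, at 113 and 121 TPM, and the insulator protein Ctcf at 116 and 115 TPM. The lowest was Dppa3, an oocyte factor that protects the early embryo's imprints, with 0 counts in both libraries, which allows at most 3 counts, or 0.0960 and 0.0709 CPM (counts scaled by library size). Zfp57, chosen after its value was seen, was at 113 and 115 TPM. The maintenance methyltransferase Dnmt1, also chosen after its value was seen, was at 69.2 and 75.1 TPM. Dnmt3l and Ctcfl, chosen in the same way, were not detected. No detected gene of this list differed between the libraries beyond the spread.

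Of 26 further imprinted genes 19 were detected, led by Cd81 (445 and 443 TPM), Dcn (245 and 231 TPM), Nap1l4 (206 and 207 TPM) and H13, and Ins2 had 0 counts in both libraries. Of 21 genes within 1000 kb of a member 18 were detected, led by Tcp1 (368 and 382 TPM), Commd1, Acat2 (171 and 173 TPM) and Ppp2r5c (71.7 and 72.6 TPM), with Gpr1 lowest at 0.18 and 0.22 TPM. The medians were 7.48 TPM for the further imprinted genes and 31.3 TPM for the neighbours, beside 37.2 TPM for the 41 members.

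Between the 2 libraries 1 of the 41 members differed beyond 2 SDs of genes of like count, where 3.55% of the 17982 genes tested did. The share is close to the background. The gene was Kcnq1ot1, lower in replicate 2 by a log2 ratio of -0.18 against an SD of 0.081, and it was not called when libraries were scaled to the ERCC spike-ins. The median absolute log2 ratio was 0.08 over the members and 0.10 over all genes tested, 23 members were higher in replicate 2 and 18 lower, and 3 exceeded 0.2 in either direction. These were Ascl2 at 1.02, Zim1 at 0.44 and Nap1l5 at -0.23, each within the spread of genes of like count. Igf2, H19 and Dlk1, which fetal liver also expresses, had log2 ratios of -0.05, -0.07 and 0.11, while the liver markers fell by 2.75 in the median. The part of liver RNA, or of the mix of forelimb and hindlimb, in single members was not tested.

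**Figure D4:**
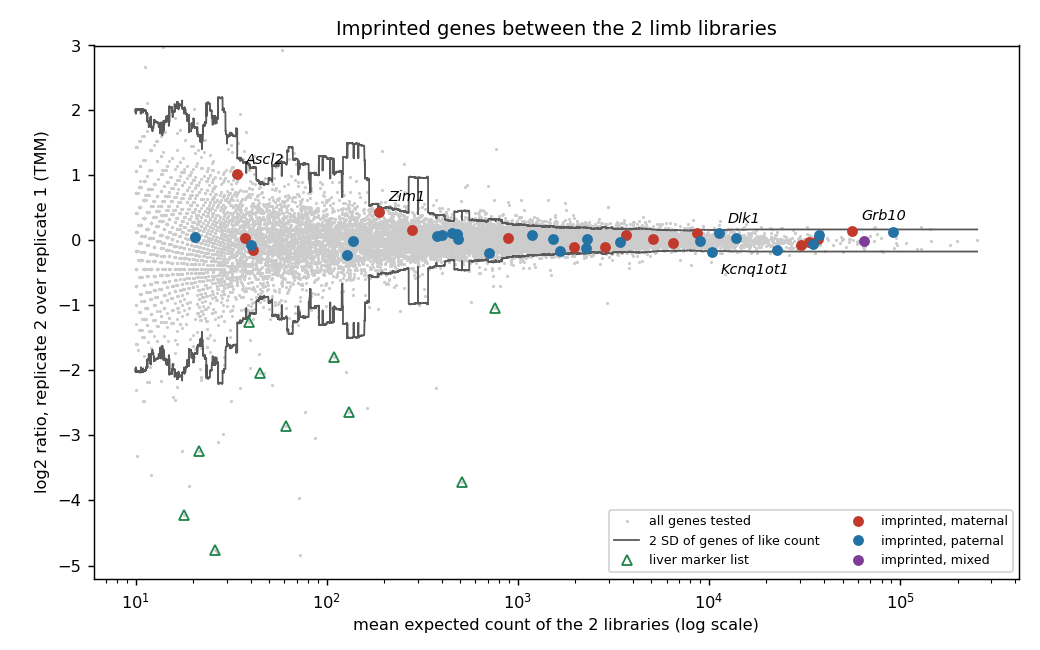
log2 ratio of replicate 2 over replicate 1 (TMM-scaled) against the mean expected count of both libraries (log axis), with all genes tested in grey, 2 SDs of genes of like count as lines, imprinted genes as filled circles and liver markers as open triangles; 43 genes lie outside the drawn range of -5.2 to 3. The imprinted genes stay within or near the lines, while all 10 liver markers lie below them.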

How the data were processed

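Total RNA from E13.5 mouse limb was measured in 2 libraries. Expected counts in the deposited gene and transcript tables are model estimates that divide reads matching several transcripts, per the file headers. TPM, as deposited, corrects the counts for effective length, which the authors set to length minus 99 nt. The deposited FPKM values scale by length and library size. The IsoPct column of the deposited transcript tables gives a transcript as a percent of its gene's TPM. Per the labels the build was mm10, and GENCODE M4 is named in the deposited text files. Which aligner or quantifier was run, and whether strand was used, is not given in the sources used here.

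Counts were rounded for edgeR 4.0.16 (R 4.3.3, TMM scaling) and DESeq2 1.42.0 (alternative size factors). All other values came from Python 3.11.15, numpy 2.4.6 and pandas 2.3.3. Positions, transcript names and start sites were read from GENCODE M21 (GRCm38), and promoter and miRNA sequences from RefSeq (GRCm38.p6). The method for ratios between libraries was tested on simulated data of 18006 genes, where it called 100% of genes changed by 1 log2 unit at 100 counts or more and 68.0% of those between 10 and 99 counts. Unchanged genes were called in 2.21% and 4.26% of cases in these ranges. The simulation gave every gene the same variation, 5.19% beyond counting noise. The measured SD was wider for some members above 100 counts, such as 0.64 for Nap1l5 and 0.75 for Zrsr1. For these a change of 1 log2 unit would lie within 2 SDs and not be called, so the simulated shares do not hold for them.

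With 1 group, no conditions were compared and no p-value was computed. Depth was 31253053 and 42301448 counts, so that 3 counts equal 0.0960 and 0.0709 CPM. Entries with bare numbers as identifiers held 0.000226% and 0.000148% of the counts and were left out, as were ERCC spike-ins outside their use for scaling. Alternatives were other detection thresholds, other pseudocounts, expected counts, posterior mean TPM, FPKM, other scalings, a length trend, other windows for start sites and each library alone. The members, lists and pairs were chosen with earlier results of these data known. Named are all members and paired genes, the 4 highest genes and the lowest of the lists on imprint control, other imprinted genes and cluster neighbours, the 2 highest of each cell type list, and transcripts or start sites with at least 10% of a member's TPM. Further genes are named where the text says that they were chosen after their values were seen, and some that the rule picks are not named.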

Additional observations from a re-analysis of the deposited data

How the results depend on the processing

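The number of detected members was 34 to 41 over the other thresholds and units and 37 to 38 in either library alone. The log2 ratio of the median of paternally over maternally expressed members was -0.54 to -0.43 in either library alone, but -1.33 without the 7 members imprinted only in some tissues. The number of members called between libraries was 0 with ERCC scaling and 2, Dlk1 and Kcnq1ot1, after removal of a length trend. The number of pairs past the spread was 30 to 32 of 33 under other pseudocounts and units. It was 27 of the 29 with both genes at 1 TPM or more. In either library alone it was 31 to 32, with Igf2r over Airn past the spread in replicate 2 alone. Pairs of other genes were not counted, so these numbers have no background share. On expected counts, which do not correct for length, 2 pairs turned over: Sgce over Asb4 had a log2 ratio of -0.67 and Igf2 over Grb10 one of -0.65. Longer genes gain on that scale by construction. On it Igf2 over Cdkn1c was no longer past the spread and 2 pairs, Igf2r over Airn and Snrpn over Ube3a, were. With 1 TPM added in place of 0.1, 5 folds moved by over 1.5 times, those of Dlk1 to Dio3, Peg3 to Usp29, Kcnq1ot1 to Kcnq1, Phlda2 to Ascl2 (9.90 in place of 18.7) and Tssc4 to Slc22a18 (46.8 in place of 78.7). The leading start site held over 50% in 23 to 27 members, a count that includes members with only 1 annotated site. No paired analysis was possible because both libraries belong to 1 group. Depth limits the members under 100 counts, Dio3, Slc22a18, Ascl2, Kcnq1 and Usp29, whose order was within the spread. The libraries differed in liver and limb-type genes, whose part in the members' levels was not tested.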
